A study of Vitis vinifera with 15 samples.

Results

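The 10 genes described here make and cleave carotenoids, and their transcripts were followed in the berry skin of 5 table grape cultivars. They were taken by identifier from a table of 31924 genes and comprise 2 phytoene synthases (PSY), 2 beta-carotene hydroxylases (BCH), 2 copies each of the carotenoid cleavage dioxygenases CCD1 and CCD4, and 2 9-cis-epoxycarotenoid dioxygenases (NCED). The choice used no cut-off on measured values, but it was made with earlier results of these data known. Carotenoids are the yellow to orange pigments of the plastid, where they take part in light harvesting and protect chlorophyll. PSY makes phytoene in the first committed step, and BCH adds the hydroxyl groups that turn beta-carotene into zeaxanthin. CCD1 and CCD4 cut carotenoids or their breakdown products into smaller molecules, among them the norisoprenoids such as beta-ionone that contribute floral and fruity notes to grapes, while NCED cuts epoxycarotenoids in the step that commits them to abscisic acid, a hormone of berry ripening.

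Skin RNA was sequenced from 3 libraries of each cultivar, all of Vitis grown in one vineyard and labelled as taken at ripening. The muscat aroma type comprised Shine muscat, Midknight Beauty and Centennial Seedless, the strawberry type Summer Black, and the neutral type Victoria, which served as the control. Midknight Beauty and Summer Black have dark skins and the other cultivars lime-green ones. Strawberry and neutral aroma were each represented by 1 cultivar, so aroma type and cultivar cannot be told apart there. The labels number the libraries of a cultivar as replicates 1 to 3, as does the study's sequencing summary, whereas its methods use the same numbers for 3 stages of maturity. They are treated as replicates here, and a p-value then measures the spread between these libraries, whatever its source. Levels are FPKM, fragments per kilobase of transcript scaled to the mapped fragments of the library, which can be compared between genes. The sum of FPKM ran from 718652 to 786207 per library, the 5 highest genes took 9.79% to 18% of it, and the table holds no count of the fragments behind a value. Reads mapped per library are listed in the study and were not used here, and the mapped share was by far the lowest in Shine muscat replicate 1, followed by Summer Black replicate 3. No marker of skin was annotated in the sources used here, so the tissue label was not checked.

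A gene was tested when it reached 1 FPKM in at least 3 of the 15 libraries, which 18238 genes did, and 8 of the 10 carotenoid genes were among them. The others, 1 BCH and 1 NCED, stayed below this level and entered only a fit without a filter. Differences were tested with limma on log2(FPKM + 1), which understates the change of genes at low levels, and p-values were adjusted by the Benjamini-Hochberg method over the 18238 genes. The moderated F over the 5 cultivars passed an adjusted p of 0.005 for 4 of the 8 genes, where 20.3% of all genes tested passed: both CCD1 copies, CCD4 VIT_02s0087g00910 and NCED VIT_19s0093g00550. At an adjusted p of 0.05, which 43.8% of all genes met, 7 of the 8 genes passed, all but PSY VIT_12s0028g00960. A pair of cultivars was said to differ at an absolute log2 fold change of at least 1 with an adjusted p under 0.005. Again 4 of the 8 genes differed in at least 1 of the 10 pairs, against 20.7% of all genes, but these were both CCD1 copies, CCD4 VIT_02s0087g00930 and the same NCED. No PSY or BCH gene passed either test at 0.005. In RNA of a whole tissue, fewer cells of a type and less RNA per cell cannot be told apart.

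**Figure D1:**
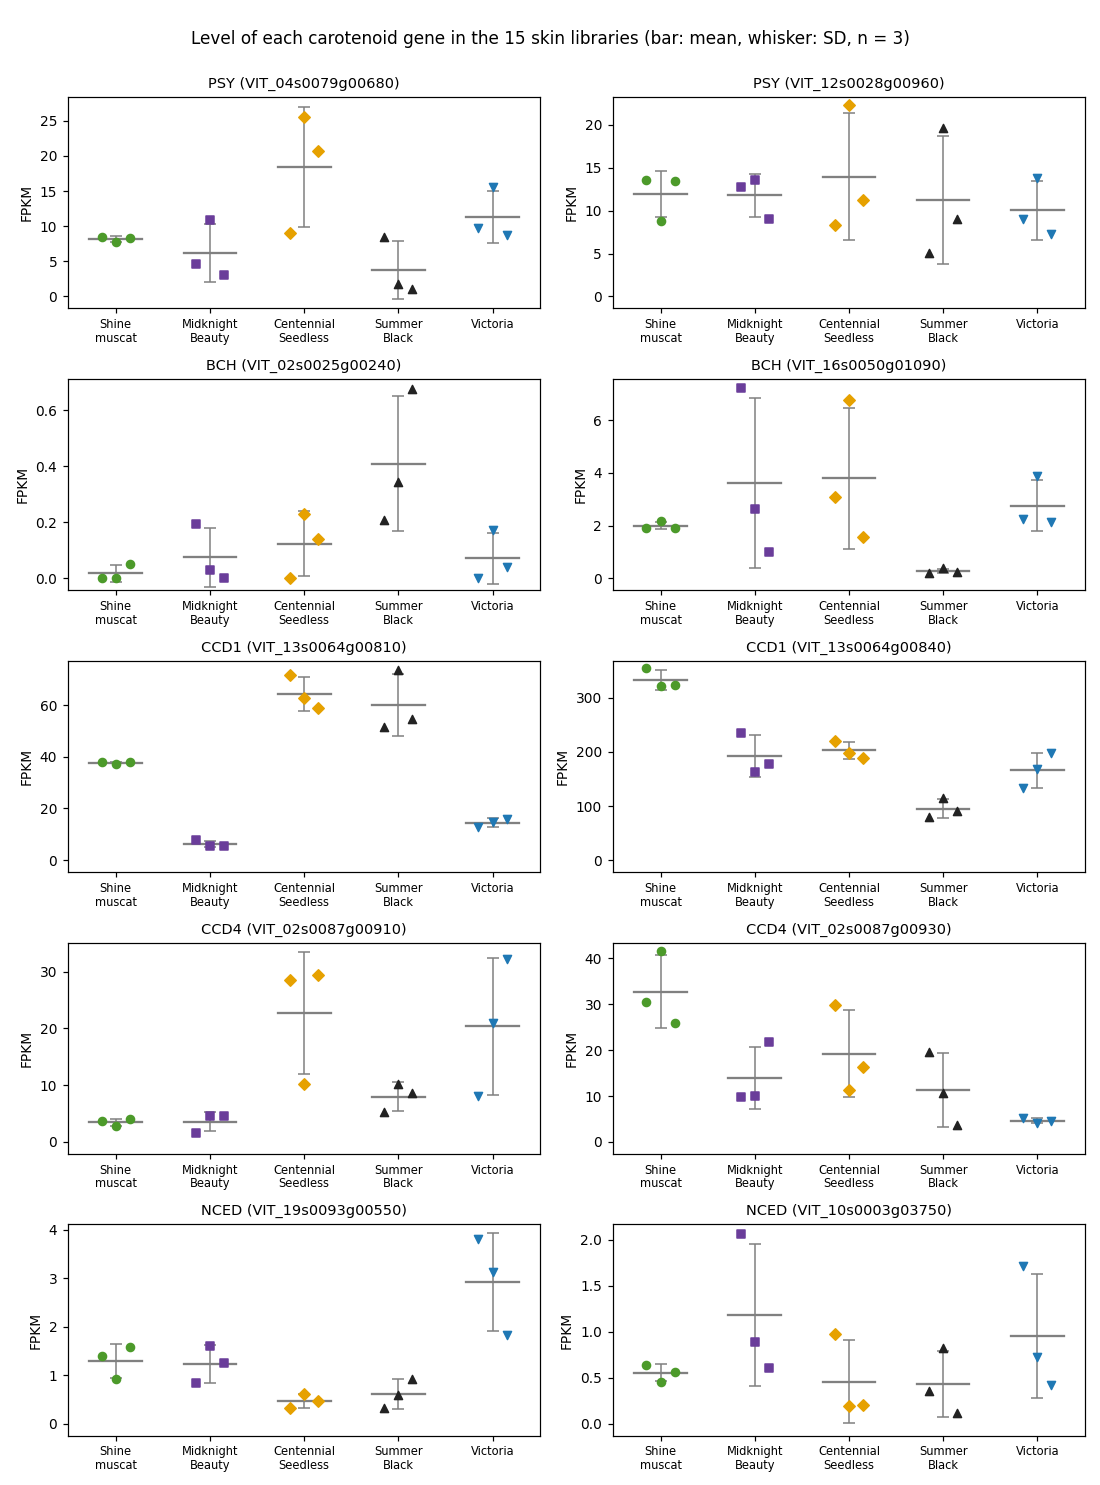
FPKM (vertical axis, linear, a scale of its own in each panel) of the 10 carotenoid genes in each of 15 skin libraries, by cultivar; points are libraries, and the bar and whiskers give the mean and SD of 3. CCD1 g00840 ran from 80.0 to 355 FPKM, while BCH g00240 stayed at or below 0.676 FPKM in every library.

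The entry step of the pathway was transcribed in every library, with a wide spread within cultivars and no difference between cultivars that passed the test. PSY VIT_04s0079g00680 (PSY g00680, on chromosome 4 by its identifier) read 9.01, 25.6 and 20.8 FPKM in Centennial Seedless and 9.74, 15.5 and 8.68 FPKM in Victoria. Shine muscat was even, at 8.46, 7.74 and 8.37 FPKM, and Midknight Beauty uneven, at 4.64, 10.8 and 3.01 FPKM. The Summer Black libraries stood at 8.49, 1.73 and 1.06 FPKM. The lower pair of these lay below every other library, and the remaining one between those of Shine muscat and Victoria. The means were 18.5 ± 8.53 FPKM in Centennial Seedless and 3.76 ± 4.11 FPKM in Summer Black (SD, n = 3), a log2 difference of 2.25 (SE 0.54, limma adjusted p = 0.0103) that missed the threshold, and the F over cultivars missed it as well (adjusted p = 0.0305). This call rested on 1 library: without Summer Black replicate 1 the F passed (adjusted p = 0.00298), as did the difference of Centennial Seedless from Summer Black (log2 2.92, adjusted p = 0.00105) and that of Summer Black from Victoria (log2 -2.34, adjusted p = 0.00461, against -1.67 and 0.0469 with it). The SD within cultivars, 0.74 on the log2 scale, was above that of 94.4% of the genes tested.

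The second phytoene synthase, VIT_12s0028g00960 (PSY g00960, chromosome 12), had means within a narrow range, from 10.02 ± 3.41 FPKM in Victoria to 13.9 ± 7.36 FPKM in Centennial Seedless (SD, n = 3). Its libraries ran from 5.09 FPKM in Summer Black replicate 1 to 22.3 FPKM in Centennial Seedless replicate 2, and the libraries of every pair of cultivars overlapped. The F over cultivars gave a limma adjusted p of 0.892. This did not show equal levels: the difference between the extreme means, Centennial Seedless and Victoria, was 0.37 on the log2 scale with a 95% interval from -0.53 to 1.28. Its share of the summed PSY level went from 35.1% to 91.9% over the libraries, and the highest share was found in a Summer Black library in which PSY g00680 was low.

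Among the hydroxylases, BCH VIT_16s0050g01090 (BCH g01090, chromosome 16) was low in Summer Black, with 0.203, 0.372 and 0.244 FPKM. The other cultivars read 1.91, 2.16 and 1.91 FPKM in Shine muscat, 7.21, 2.61 and 1.01 FPKM in Midknight Beauty, 3.07, 6.76 and 1.55 FPKM in Centennial Seedless, and 2.26, 3.87 and 2.12 FPKM in Victoria. All 3 Summer Black libraries thus lay below the 12 others, as they did for 5.79% of the genes tested. The mean of Summer Black, 0.273 ± 0.0886 FPKM, was 13.9-fold below that of Centennial Seedless (3.79 ± 2.68 FPKM) and 10.1-fold below that of Victoria (2.75 ± 0.975 FPKM; SD, n = 3). On the log2(FPKM + 1) scale these gaps shrank to 1.76 and -1.53, Summer Black being subtracted in the first and leading in the second, and missed the threshold (limma adjusted p = 0.0141 and 0.0301). With a pseudocount of 0.1 in place of 1 they came to 3.17 and -2.91 and passed it (adjusted p = 0.00254 and 0.00477), as did the difference of Midknight Beauty from Summer Black (2.93, adjusted p = 0.00378) and the F over cultivars (adjusted p = 0.00471). Among the 4 cultivars outside Summer Black, absolute log2 differences were at most 0.53 and none passed the threshold.

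The other hydroxylase, VIT_02s0025g00240 (BCH g00240, chromosome 2), was hardly detected. It was listed at 0 in 5 of 15 libraries and did not exceed 0.229 FPKM outside Summer Black. The Summer Black libraries read 0.207, 0.344 and 0.676 FPKM, the cultivar with the lowest BCH g01090 having the highest mean of BCH g00240. It fell under the filter, and in the fit without a filter, over 26298 genes, no pair of cultivars passed and the F missed the threshold (limma adjusted p = 0.045).

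Of the dioxygenases, CCD1 was by far the most abundant transcript: its 2 copies together held between 83.1% and 94.4% of the FPKM of the 6 CCD1, CCD4 and NCED genes in each library. CCD1 is a cytosolic enzyme with broad substrate use. Both copies carry identifiers of scaffold 64 on chromosome 13, VIT_13s0064g00810 (CCD1 g00810) and VIT_13s0064g00840 (CCD1 g00840). Copies of a gene can share reads, and how the reads were divided between them was not tested, so the level of each single copy is uncertain to that extent. The copies are therefore given singly, as a ratio and as a sum.

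CCD1 g00840 was the higher copy in every library, and its level placed it above 93.6% to 99.0% of the genes listed above 0 in its library. It read 355, 321 and 324 FPKM in Shine muscat, 236, 164 and 178 FPKM in Midknight Beauty, 220, 199 and 190 FPKM in Centennial Seedless, 133, 168 and 198 FPKM in Victoria, and 80.0, 114 and 90.9 FPKM in Summer Black. Every Shine muscat library lay above all others, as for 8.96% of the genes tested, and every Summer Black library below all others, with the remaining cultivars overlapping between them. The mean of Shine muscat, 333 ± 18.7 FPKM, was 3.50-fold that of Summer Black, 95.1 ± 17.6 FPKM (SD, n = 3; log2 difference 1.81, SE 0.18, limma adjusted p = 9.09e-06). Summer Black was also below Centennial Seedless (log2 difference 1.10, adjusted p = 0.000743) and Midknight Beauty (1.01, adjusted p = 0.00131), and Shine muscat above Victoria (1.02, adjusted p = 0.00123). These last 3 lay close to the fold limit. The Shine muscat to Victoria difference came to 0.87, below the limit, after median-of-ratios scaling of the libraries, which lowered the median difference of all genes between these cultivars by 0.12, and the call was lost without any single Shine muscat library or without Victoria replicate 1 or 2 (0.87 to 1.15 over all omissions). The Midknight Beauty to Summer Black call was lost without Midknight Beauty replicate 1, Summer Black replicate 1 or Summer Black replicate 3, and the Centennial Seedless to Summer Black call without Summer Black replicate 1. Differences in 4 or more pairs were found for 7.13% of the genes tested.

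CCD1 g00810 followed another order. It stood at 71.7, 62.9 and 58.9 FPKM in Centennial Seedless, 51.6, 73.8 and 54.6 FPKM in Summer Black, 37.9, 37.4 and 37.9 FPKM in Shine muscat, 12.7, 14.7 and 16.1 FPKM in Victoria, and 7.71, 5.56 and 5.47 FPKM in Midknight Beauty. Only Centennial Seedless and Summer Black overlapped, and these means did not differ beyond their spread (log2 difference 0.12, 95% interval -0.22 to 0.45, limma adjusted p = 0.656). The muscat cultivars were found at both ends: Centennial Seedless, at 64.5 ± 6.56 FPKM, was 10.3-fold above Midknight Beauty, at 6.25 ± 1.27 FPKM (SD, n = 3; log2 difference of Midknight Beauty from Centennial Seedless -3.18, SE 0.16, adjusted p = 6.1e-08). Victoria, at 14.5 ± 1.70 FPKM, lay below Centennial Seedless (log2 2.08, adjusted p = 2.23e-06), Summer Black (1.96, adjusted p = 2.67e-06) and Shine muscat (1.33, adjusted p = 6.64e-05) and above Midknight Beauty (-1.11, adjusted p = 0.000566). Midknight Beauty was also below Summer Black (-3.07, adjusted p = 4.25e-08) and Shine muscat (the latter 2.43 higher, adjusted p = 2.7e-07). In all, 7 of the 10 pairs differed, while 1.83% of the genes tested differed in 6 or more. Each of these 7 calls was kept when any 1 of the 15 libraries was left out.

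The proportion of the CCD1 copies differed between cultivars and varied little among the libraries of each. CCD1 g00840 exceeded CCD1 g00810 by 1.55 to 1.66 times in the Summer Black libraries, 3.07 to 3.22 times in Centennial Seedless, 8.54 to 9.36 times in Shine muscat, 10.4 to 12.3 times in Victoria and 29.4 to 32.5 times in Midknight Beauty. No library of one cultivar had a ratio within the range of another. The ratio of a gene to CCD1 g00840 separated all 5 cultivars in this way for 0.362% of the other genes tested, and the level of a single gene did so for 0.186%. In terms of the sum, CCD1 g00810 supplied 2.98% to 3.29% in Midknight Beauty and 37.5% to 39.2% in Summer Black.

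**Figure D2:**
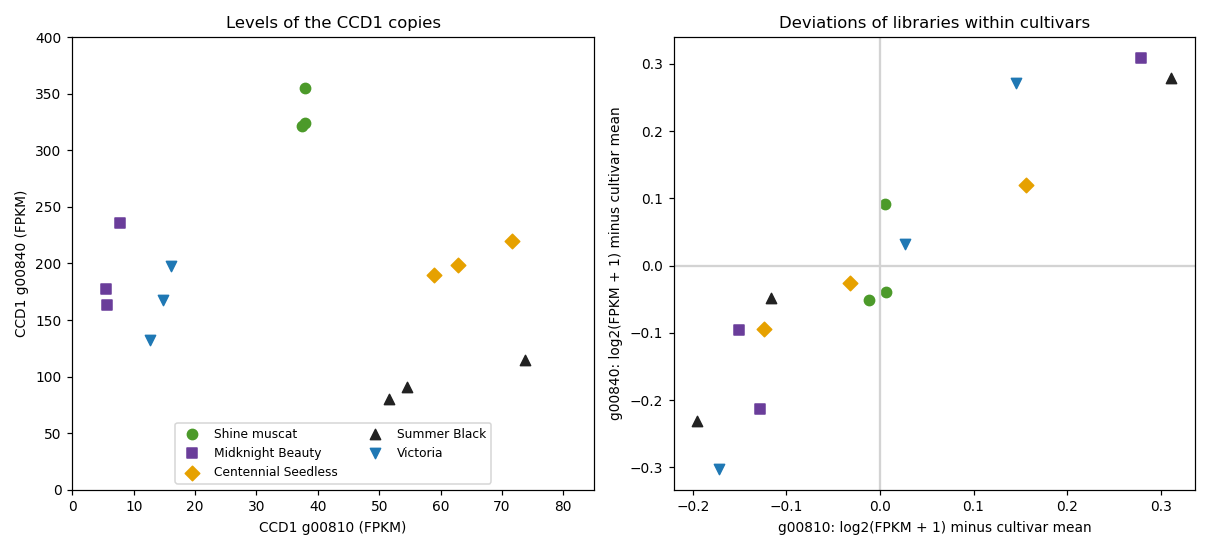
FPKM of CCD1 g00840 against CCD1 g00810 in 15 skin libraries on linear axes, with each cultivar's own symbol, and the log2 deviation of each library from its cultivar's mean for both copies. Cultivars occupy separate places on the left, with CCD1 g00840 at 1.55 to 32.5 times CCD1 g00810, and the deviations on the right fall along a line (r = 0.935).

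Pooled over the cultivars, the deviations of both copies from the cultivar means ran together. Over the 15 libraries log2 levels showed a Pearson r of -0.08 and a Spearman rho of -0.05, but after the cultivar means were subtracted r was 0.935. In Victoria, for example, both were lowest in replicate 1 and highest in replicate 3, and in Summer Black both were highest in replicate 2. Shine muscat did not show this: CCD1 g00810 hardly deviated (log2 -0.012 to 0.007), and in replicate 3 the copies deviated in opposite directions (0.007 and -0.040). Of 18237 other genes, 8 followed the deviations of CCD1 g00810 with a higher r than CCD1 g00840 did. These correlations are descriptions, since libraries of a cultivar share its genotype and all genes of a library share its depth. The genes whose levels over all 15 libraries were most like those of the copies were VIT_10s0003g03770 for CCD1 g00810 (r = 0.96, rho = 0.90, and -0.10 after subtraction of cultivar means) and VIT_09s0002g08470 for CCD1 g00840 (r = 0.98, rho = 0.99, and 0.87 after subtraction).

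The sum of both copies separated the cultivars less than the copies did. It amounted to 371 ± 18.8 FPKM in Shine muscat, 267 ± 22.2 in Centennial Seedless, 199 ± 39.3 in Midknight Beauty, 181 ± 34.4 in Victoria and 155 ± 29.5 FPKM in Summer Black (SD, n = 3). With the sum as 1 row of the table, an alternative chosen after the data had been seen, 2 pairs of cultivars differed. The single copies differed in 7 pairs (CCD1 g00810) and 4 pairs (CCD1 g00840), and at least 1 copy did in 9. Both differences in the sum were those of Shine muscat, from Summer Black (log2 1.27, limma adjusted p = 0.000166) and from Victoria (1.05, adjusted p = 0.000991).

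CCD4 is a plastid enzyme, whose loss leaves more carotenoid in the petals of chrysanthemum and the flesh of peach. Its copies, VIT_02s0087g00910 (CCD4 g00910) and VIT_02s0087g00930 (CCD4 g00930), carry identifiers of scaffold 87 on chromosome 2 and also differed in their order of cultivars. The caution about reads shared between copies holds for them too. CCD4 g00910 was low in Shine muscat, at 3.64, 2.82 and 3.96 FPKM, and in Midknight Beauty, at 1.59, 4.62 and 4.48 FPKM. It read 5.21, 10.2 and 8.60 FPKM in Summer Black, 28.5, 10.3 and 29.4 FPKM in Centennial Seedless, and 8.06, 20.9 and 32.1 FPKM in Victoria. No library of Shine muscat or Midknight Beauty exceeded 4.62 FPKM, and none of the other cultivars was below 5.21 FPKM. This gap was small, and the share of all genes tested with such a split was not computed. Centennial Seedless and Victoria had the highest means, 22.7 ± 10.8 and 20.4 ± 12.1 FPKM, against 3.47 ± 0.589 FPKM in Shine muscat and 3.57 ± 1.71 FPKM in Midknight Beauty (SD, n = 3). The F over cultivars passed (limma adjusted p = 0.00332) but no single pair did. Shine muscat against Centennial Seedless came nearest (log2 -2.28, SE 0.49, adjusted p = 0.00583, and 0.00469 after median-of-ratios scaling, which passed), followed by Midknight Beauty against Centennial Seedless (-2.33, adjusted p = 0.00806) and Shine muscat against Victoria (-2.07, adjusted p = 0.00896). The F depended on single libraries: the call was lost in 11 of the 15 fits without 1 library, with adjusted p from 0.000873 to 0.00958 over all 15.

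CCD4 g00930 was on average highest in Shine muscat, at 30.5, 41.5 and 26.0 FPKM, and lowest in Victoria, at 5.31, 4.07 and 4.56 FPKM. Between them stood Centennial Seedless with 29.8, 11.4 and 16.4 FPKM, Midknight Beauty with 9.87, 10.1 and 21.7 FPKM, and Summer Black, whose libraries spread from 3.65 through 10.7 to 19.6 FPKM. All 9 muscat libraries, from 9.87 FPKM upwards, lay above the 3 Victoria libraries, as they did for 3% of the genes tested. Shine muscat, at 32.7 ± 7.97 FPKM, was 7.04-fold above Victoria, at 4.65 ± 0.624 FPKM (SD, n = 3; log2 difference 2.56, SE 0.48, limma adjusted p = 0.00214), and this was the only pair of cultivars that differed in a CCD4 copy. The call was lost without any 1 of the 6 libraries of these cultivars (adjusted p up to 0.0123). The other muscat cultivars were not separable from Victoria by the test, with log2 differences of 1.74 for Centennial Seedless (95% interval 0.71 to 2.77, adjusted p = 0.0412) and 1.31 for Midknight Beauty (0.28 to 2.34, adjusted p = 0.126).

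The balance of the CCD4 copies turned over between cultivars. CCD4 g00930 was the higher copy in all Shine muscat and Midknight Beauty libraries, by 6.58 to 14.7 and 2.18 to 6.20 times, and the lower one in all Victoria libraries, at 0.142 to 0.659 times CCD4 g00910. In Centennial Seedless and Summer Black the ratio ran from 0.558 to 1.11 and from 0.425 to 3.77. In contrast to CCD1, the copies did not deviate together within cultivars (r = 0.06). The sum of both gave no difference in any pair of cultivars, and its F missed the threshold (limma adjusted p = 0.0965). The gene most like CCD4 g00910 was the row numbered next to it, VIT_02s0087g00920, with r = 0.98 (rho = 0.97) over 15 libraries. Its r after subtraction of cultivar means, 0.947, was the highest of 18237 genes. It was found at 0.190 to 0.792 times the level of CCD4 g00910 (median 0.485), and whether it shares reads with that copy was not tested.

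**Figure D3:**
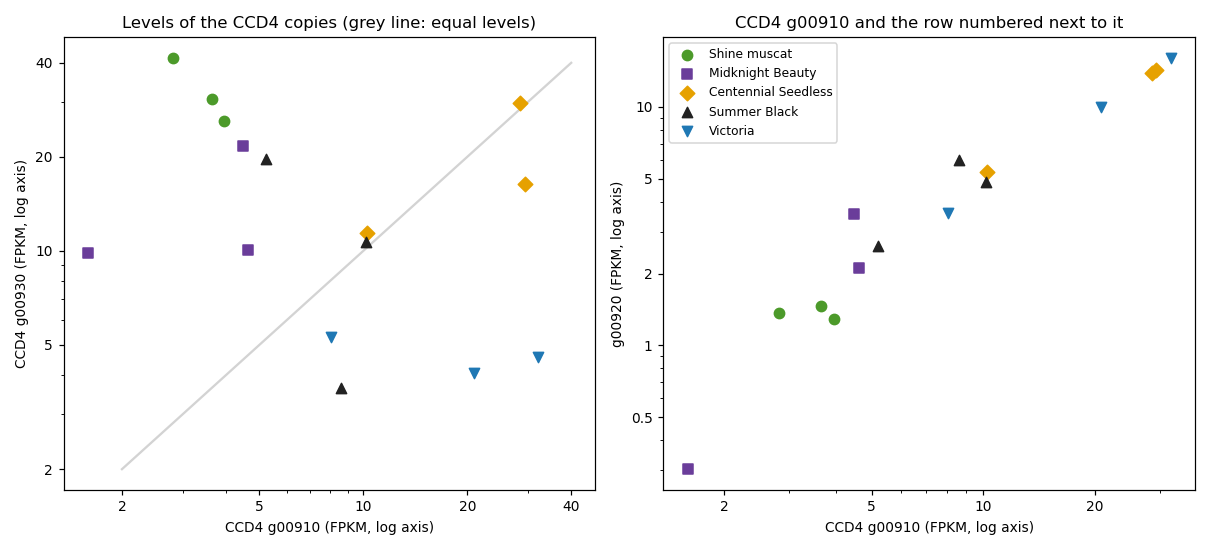
FPKM of CCD4 g00930 (left) and of the row numbered g00920 (right) against CCD4 g00910 in 15 skin libraries, on log axes, by cultivar; the grey line marks equal levels. Shine muscat and Midknight Beauty lie above the line and Victoria below it, while g00920 follows CCD4 g00910 (r = 0.98).

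NCED transcripts were scarce in every cultivar, and Victoria was the highest cultivar for one of the genes. NCED VIT_19s0093g00550 (NCED g00550, chromosome 19) read 3.81, 3.13 and 1.83 FPKM in Victoria. It read 1.40, 0.913 and 1.59 FPKM in Shine muscat, 0.833, 1.61 and 1.25 FPKM in Midknight Beauty, 0.319, 0.591 and 0.931 FPKM in Summer Black, and 0.327, 0.619 and 0.477 FPKM in Centennial Seedless. All 12 libraries of the other cultivars were below the 3 of Victoria, as for 1.42% of the genes tested, although the gap between 1.61 and 1.83 FPKM was small. The gene reached 1 FPKM in 7 libraries, 4 of them outside Victoria. Victoria, at 2.92 ± 1.01 FPKM, was 6.16-fold above Centennial Seedless, at 0.475 ± 0.146 FPKM (SD, n = 3; log2 difference of Centennial Seedless from Victoria -1.38, SE 0.22, limma adjusted p = 0.00134), and 4.76-fold above Summer Black, at 0.614 ± 0.306 FPKM (-1.26, adjusted p = 0.00168). Shine muscat and Midknight Beauty were 0.75 and 0.79 lower than Victoria on the same scale and did not pass (adjusted p = 0.0312 and 0.0478). The first call was lost without Centennial Seedless replicate 1 or 3 or Victoria replicate 1 or 2, and the second without Summer Black replicate 1 or 2 or Victoria replicate 1 or 2, and under quantile normalization (-1.02, adjusted p = 0.00825). The F (adjusted p = 0.0019) was lost without Centennial Seedless replicate 3 or Victoria replicate 1 or 2.

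The other NCED, VIT_10s0003g03750 (NCED g03750, chromosome 10), ran from 0.118 to 2.06 FPKM and reached 1 FPKM in 2 libraries, replicate 1 of Midknight Beauty (2.06 FPKM) and of Victoria (1.71 FPKM). Its means were 1.19 ± 0.773 FPKM in Midknight Beauty, 0.955 ± 0.672 in Victoria, 0.553 ± 0.0923 in Shine muscat, 0.457 ± 0.449 in Centennial Seedless and 0.433 ± 0.359 FPKM in Summer Black (SD, n = 3). Replicate 1 was the highest library in every cultivar but Summer Black. In the fit without a filter no pair of cultivars passed, nor did the F (limma adjusted p = 0.369).

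**Figure D4:**
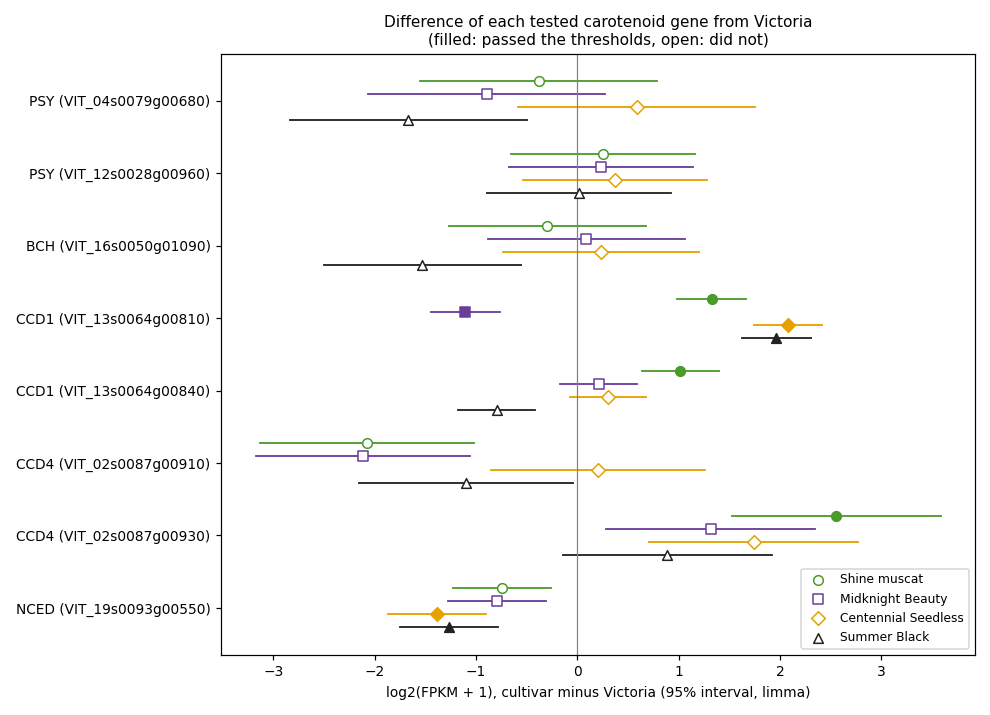
Difference of each cultivar from Victoria on the log2(FPKM + 1) scale for the 8 carotenoid genes tested, with 95% intervals from the limma fit of 15 libraries; filled symbols mark a log2 difference of at least 1 with an adjusted p under 0.005. CCD1 g00810 has differences on both sides of 0, from 2.08 in Centennial Seedless to -1.11 in Midknight Beauty, and NCED g00550 lies below 0 in all 4 cultivars.

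Set against Victoria, the neutral control, Shine muscat differed in 3 of the 8 genes, against 6.75% of all genes, each being higher (4.1% of all genes were): both CCD1 copies and CCD4 g00930. Centennial Seedless differed in 2, with CCD1 g00810 higher and NCED g00550 lower (background 3.27%), and so did Summer Black (6.1%), in the same genes and directions. Midknight Beauty differed in 1, the lower CCD1 g00810 (2.66%). All these comparisons share the Victoria libraries. No carotenoid gene was thus higher or lower than Victoria by the test in all 3 muscat cultivars. Between muscat cultivars, CCD1 g00810 differed between Midknight Beauty and both others (1 of 8 genes in each pair, background 6.15% for Shine muscat and 3.14% for Centennial Seedless), and no gene differed between Shine muscat and Centennial Seedless (0 of 8 by limma, background 5.69%). In that last pair 4 genes had an unadjusted limma p under 0.05, and the share of all genes at this level was not computed. Summer Black differed from Shine muscat in CCD1 g00840 (1 of 8, background 9.84%), from Midknight Beauty in both CCD1 copies (2 of 8, 7.16%) and from Centennial Seedless in CCD1 g00840 (1 of 8, 6.8%). When each pair was instead fitted on its own 6 libraries, 8 of these 14 differences passed. Those of NCED g00550 were lost (limma adjusted p = 0.0234 and 0.035), as were the lower CCD1 g00810 of Midknight Beauty against Victoria (0.0306) and the differences in CCD1 g00840 other than that between Shine muscat and Summer Black (0.00631, 0.028 and 0.0105). The higher BCH g01090 of Shine muscat against Summer Black, log2 1.24 with an adjusted p of 0.0599 in the joint fit, passed in the separate one (0.00127).

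The genes also differed in how even the libraries of a cultivar were. The median SD within cultivars over all genes tested was 0.27 on the log2 scale. CCD1 g00810 and g00840, at 0.19 and 0.22, were below it and NCED g00550, at 0.27, was near it. Against the 1000 genes closest in level, the SD of CCD1 g00810 was above 40%, that of CCD1 g00840 above 54.3% and that of NCED g00550 above 35.5% of them. Both PSY genes (0.74 and 0.57), BCH g01090 (0.60) and both CCD4 copies (0.66 and 0.65) were above 88.0% or more of all genes. In a fit of cultivar and number, no carotenoid gene and none of the 18238 genes differed by number (limma adjusted p under 0.005, background 0%), and at an unadjusted p under 0.05 there were 0 of the 8 genes and 10.3% of all genes.

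Of the genes that supply the pathway, DXS (deoxyxylulose phosphate synthase, VIT_05s0020g02130) could be named. It is the first enzyme of the plastid route to the precursors of carotenoids and monoterpenes. DXS read 88.7, 71.4 and 86.2 FPKM in Shine muscat, and no other library exceeded 36.9 FPKM. Its mean was 82.1 ± 9.32 FPKM in Shine muscat, 36.3 ± 0.503 in Centennial Seedless, 32.0 ± 1.90 in Midknight Beauty, 27.3 ± 6.27 in Summer Black and 18.6 ± 3.97 FPKM in Victoria (SD, n = 3). Shine muscat differed from all 4 others, by log2 1.15 (limma adjusted p = 0.000337), 1.33 (0.000101), 1.57 (1.76e-05) and 2.10 (1.83e-06) in that order. Shine muscat thus had the highest mean of DXS, CCD1 g00840 and CCD4 g00930, but only DXS differed from all 4 others. CCD1 g00840 did not pass against Centennial Seedless or Midknight Beauty (limma adjusted p = 0.0125 and 0.00575). CCD4 g00930 passed against Victoria alone (against Centennial Seedless limma adjusted p = 0.262). The Shine muscat means of both PSY genes and of CCD1 g00810 were below those of Centennial Seedless. These log2 differences, -0.97, -0.12 and -0.75, did not pass (limma adjusted p = 0.242, 0.876 and 0.005). The last adjusted p lay just above the threshold, and its difference under the fold limit.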

How the data were processed

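Skin RNA of 5 grape cultivars was sequenced in 3 libraries each. The deposited table holds FPKM, made by the authors without read counts. The labels name HISAT2 and StringTie, the methods of the study Bowtie2 and RSEM on the PN40024 reference, and the kits named also differ, so the exact route to the values is not settled. Ratios of low values between libraries shared no common step (a median of 6.06% fell in the commonest bin), so whole reads were not recovered and the fragments behind a value are not known. Reads mapped per library, which the study lists, were not used. Every column was assigned to a library by its label.

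The FPKM values were used as deposited, as log2(FPKM + 1), for genes with at least 1 FPKM in at least 3 libraries. One limma 3.58.1 fit in R 4.3.3 (lmFit, eBayes with trend) over 15 libraries gave the moderated F and the 10 pairs, with thresholds from the methods of the study (log2 fold change 1, adjusted p 0.005). The results of the study name other thresholds for its genes, a log2 fold change of 2 and an adjusted p of 0.01. These were used here as an alternative. The fit was tested on simulated data, with changes planted only in genes of higher level and without the widest spread. Genes of low level or wide spread, such as both PSY genes and both CCD4 copies, were thus not covered. A count test, which the study used, cannot be run on FPKM. Means, SDs and ratios of FPKM were computed in Python 3.11.15 with numpy 2.4.6 and pandas 2.3.3. Correlations and the SDs within cultivars on the log2 scale were computed in R.

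The text names the 10 genes, DXS, rows numbered next to the genes, and, for the genes with the largest F, the tested gene with the highest r over 15 libraries. These genes and lists were chosen with earlier results of these data known. Chromosomes are read from the identifiers, none of which matched the reference table used here (0 of 31924), so other genes of the pathway could not be named and no coordinates are given. The alternatives were another pseudocount, filters, scalings, thresholds, variance models, a replicate block, separate fits per pair, and each library left out.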

Additional observations from a re-analysis of the deposited data

How the results depend on the processing

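Over the alternatives, 975 values were recomputed. They covered the 8 F tests and the 32 gene and pair differences with an adjusted p of at most 0.05. Of the 975 values, 889 kept their side of the threshold, 57 calls were lost and 29 gained. No difference turned its direction, but many settings could not turn it. Filters, thresholds, variance models, the replicate block, separate fits and omitted libraries of other cultivars leave the log2 difference of a pair unchanged. The 32 differences were also chosen by their adjusted p. Of all 80 gene and pair differences, 18 changed sign in some setting, all with an adjusted p of 0.545 or more and a log2 size of at most 0.43 as reported. Of the 80 tests, 14 passed as reported, against 17 with a pseudocount of 0.1, 12 with quantile normalization or a filter at 5 FPKM, 9 with separate fits of each pair, 8 at a log2 fold change of 2 and an adjusted p of 0.01, and 10 to 16 without 1 library. With the adjusted p at 0.05, 7 genes passed the F instead of 4. For Shine muscat against Centennial Seedless, 1 gene in place of 0 passed after median-of-ratios scaling, after quantile normalization, with a replicate block and at the fold change of 2. At that fold change the number was 0 for Shine muscat against Summer Black, Midknight Beauty against Victoria, Centennial Seedless against Summer Black and Summer Black against Victoria, 1 for Midknight Beauty against Summer Black and Centennial Seedless against Victoria, and 2 for Midknight Beauty against Centennial Seedless. In separate fits it was 2 for Shine muscat against Summer Black, 1 for Midknight Beauty against Summer Black, Centennial Seedless against Victoria and Summer Black against Victoria, and 0 for Midknight Beauty against Victoria and Centennial Seedless against Summer Black. It was 1 for Midknight Beauty against Summer Black and for Summer Black against Victoria under quantile normalization, 1 for both Centennial Seedless and Summer Black against Victoria with the filter at 5 FPKM, which drops NCED g00550, and 2 for Centennial Seedless against Summer Black with the pseudocount of 0.1. Summed copies, chosen after seeing the data, gave 2 pairs for CCD1, against 9 in which either copy passed, and 0 for CCD4, against 1. Except for the filter and the sums, the cause was not tested.

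Without 1 library in turn, the genes that passed numbered 2 to 6 for the F, 1 to 1 for Shine muscat against Midknight Beauty, 0 to 1 against Centennial Seedless, 1 to 2 against Summer Black and 1 to 3 against Victoria, 1 to 2 for Midknight Beauty against Centennial Seedless, 1 to 3 against Summer Black and 1 to 2 against Victoria, 1 to 2 for Centennial Seedless against Summer Black and against Victoria, and 1 to 2 for Summer Black against Victoria. Over all genes, 10498 tests of a gene in a pair passed, against 5624 in separate fits, 3982 at a fold change of 2 and 6488 with the filter at 5 FPKM. Deviations from the cultivar means had a median r of 0.0389 (from -0.345 to 0.598) between libraries of the same number, 13 of 30 over 0.1, and of -0.0109 between those of other numbers, 14 of 60 over 0.1. Of 15 libraries, 9 correlated best with one of their own number. The count to be met without any shared factor was not computed, and whether the numbers share something was not tested. Since not every pair exceeded 0.1, libraries of the same number were not used as pairs. The replicate block gave 15 calls in place of 14, the one added being CCD4 g00910 in Shine muscat against Centennial Seedless (adjusted p = 0.00461). The table holds no counts, so values below 1 FPKM, as in BCH g00240 and NCED g03750, have no counting interval.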

Other observations

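The row numbered next to PSY g00680, VIT_04s0079g00690, had 304 to 1644 FPKM in the 6 libraries of the dark-skinned cultivars, Midknight Beauty and Summer Black, and at most 0.477 FPKM in the 9 others. PSY g00680 had its lowest cultivar means in the same cultivars, and over the 15 libraries the log2 levels of both rows had r = -0.69 (rho = -0.52), or -0.26 after subtraction of cultivar means. The row carries no gene name in the sources used here, and the relation was not tested. The row before CCD1 g00810, VIT_13s0064g00800, had r = 0.74 with it, 291st of 18237 genes, and was higher in Summer Black than in Victoria (log2 3.18, limma adjusted p = 0.00349).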
